A study of Homo sapiens with 6 samples.

Results

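The 38 genes described here encode 2-oxoglutarate-dependent oxygenases that demethylate or hydroxylate histones, DNA, RNA, proteins or small molecules. They were followed in Hep3B cells, derived from a human hepatocellular carcinoma, in 2 stably transfected clones grown under G418. The control was clone 2 of cells with the plasmid pU6, and clone D20 carried the plasmid siSDHB, directed against SDHB, which encodes the iron-sulfur protein of succinate dehydrogenase. There were 3 arrays (Affymetrix HG-U133 Plus 2.0) of each clone, A, B and C. Members were chosen by name, and each was represented by its brightest probe set over all 6 arrays out of 19775 genes named on the array. All 38 were found, with 113 probe sets between them. Of the members 36 passed the filter on dim probe sets, and P3H3 and BBOX1 did not.

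Enzymes of this family use iron(II), oxygen and 2-oxoglutarate, and release succinate and carbon dioxide for each substrate they oxidise. Succinate competes with 2-oxoglutarate at the active site, and loss of succinate dehydrogenase is known to raise succinate and to slow several of these enzymes in tumours. The arrays measured their transcripts, not their activity, nor succinate, nor the methylation of any substrate. SDHB itself was not analysed here. The comparison asks whether the transcripts of these enzymes differ between clone D20 and the control clone.

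Each group was 1 clone, so an effect of the plasmid cannot be told apart from other differences between clones. The labels do not state whether a clone's 3 arrays came from separate cultures, and p-values measure only the spread between these arrays, which may be technical. The 2% trimmed mean signal was 500.1 on every array and the median signal was 77.7 to 92.4. The 3' to 5' signal ratio of GAPDH control probe sets, a sign of RNA quality, was 1.08 to 1.15 in control and 1.11 to 1.25 in D20. Hepatocyte markers were present in both clones, with ALB at 43678 and 43935. Of the 7, 5 fell in D20, among them AFP (log2 fold change -5.62), and FGB rose (1.7). Summed fibroblast markers went from 464.7 to 666.3 in the control arrays to 3661.4 to 4526.6 in the D20 arrays, almost all of it COL1A1. In the same list LUM had a mean of 160.4 in control and of 8.3 in D20, the latter under the lowest mean signal tested (43.2). LUM passed the filter only through its control arrays and is given as a description. COL3A1 stood at 20.2 and 20.3. Blood markers summed to 263.3 to 519.2 in control and 279.6 to 352.0 in D20, and PTPRC, their defining gene, was too dim to test. Endothelial markers summed to 112.1 to 176.7 in control and 255.8 to 341.9 in D20, with CDH5 dim (31.2 and 32.1). PECAM1, the 1 endothelial marker tested, rose by 1.63 on the log2 scale from a mean of 62.5 to 213.1 (adjusted p = 0.0042, limma). Biliary markers summed to 19526.9 to 20385.8 and 20918.8 to 23576.3. Among them SOX9 fell (-0.65), while EPCAM (0.41) and KRT19 (0.39) rose, neither of the rises being called in every alternative analysis. The part of these markers in the results below was not tested.

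Most members did not pass the test. By limma, with p-values adjusted after Benjamini-Hochberg across the 32768 tested probe sets, 9 of the 36 tested members fell in D20 and 2 rose, and 25 were not called. Among all 13781 genes tested by their brightest probe set 44.5% were called, 23.7% higher and 20.8% lower, against 30.6% of the members (36.5% of all probe sets tested were called). The median log2 fold change of the members was 0.00, with 18 above and 18 below 0, and that of all genes 0.04. The median size of the change, without its sign, was 0.30 for members and 0.44 for all genes. For 15 tested members the arrays of the clones did not overlap, 6 with D20 above and 9 with D20 below, where 54.1% of all genes did not overlap. P3H2, ASPH and ALKBH7 were called with a change of at least 2-fold, which 17.3% of all genes showed.

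By the substrate of the enzyme, the tested members called were 2 of 15 directed at histones, both lower, and 2 of 5 at DNA, both lower. None of the 4 directed at RNA was called by limma, and none had an unadjusted p under 0.05 apart from ALKBH1 (0.021). Among 8 directed at proteins 1 rose and 2 fell, and of 2 directed at small molecules 1 rose and 1 fell. ALKBH7 and OGFOD2, whose substrate was not assigned here, both fell. The medians were 0.08 for histone, 0.03 for DNA, 0.21 for RNA, -0.21 for protein and 0.05 for small-molecule enzymes, but these signs depend on the scaling. With median centring they were -0.04 for histone, -0.09 for DNA and -0.07 for small-molecule enzymes, and with spike-in scaling 0.04 for protein enzymes. Differences between classes were not tested.

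**Figure D1:**
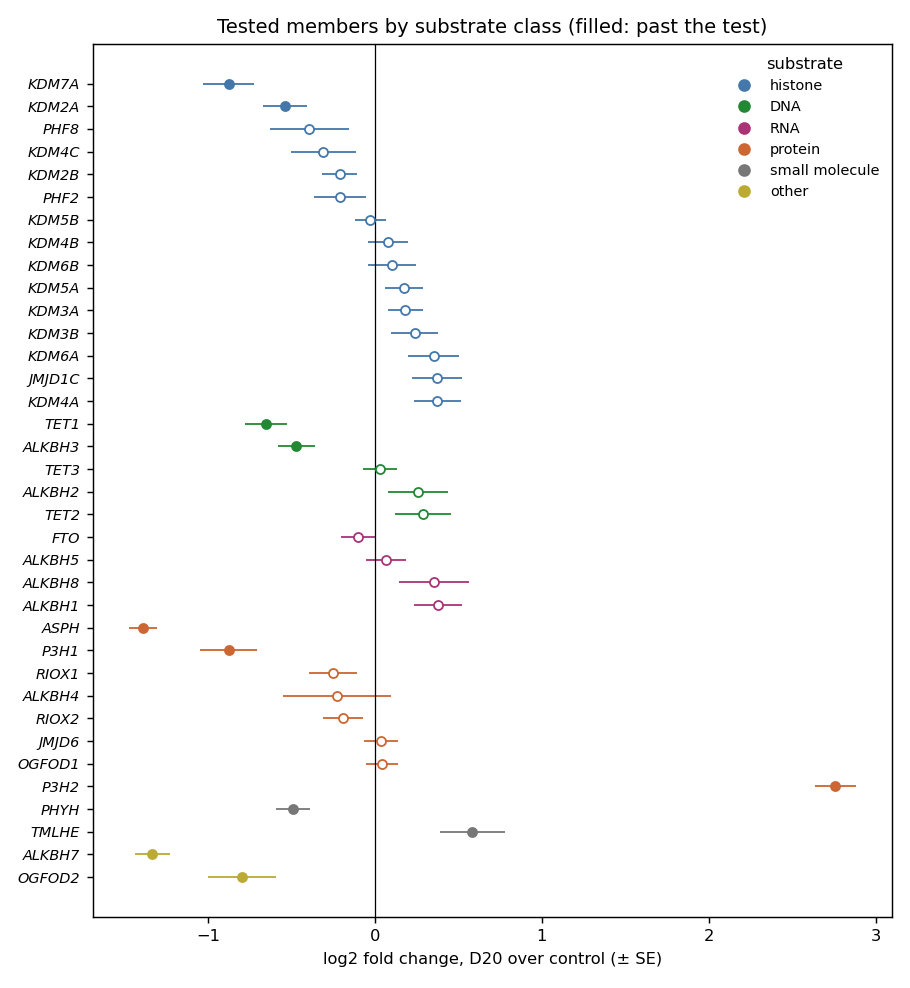
Log2 fold change of D20 over control for the 36 tested members, with the standard error from limma as bars, coloured by substrate class; filled points passed the test at an adjusted p under 0.05. The histone and RNA enzymes lie between -0.88 and 0.38, with KDM7A (-0.88) and KDM2A (-0.54) past the test. P3H2 (2.76) and ASPH (-1.39) mark the ends.

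The widest changes lay among the protein hydroxylases. P3H2, a prolyl 3-hydroxylase of collagens, had signals of 306.7, 352.0 and 309.8 on the control arrays A, B and C and 2303.8, 2401.4 and 2122.2 on the D20 arrays. Every D20 array stood far above every control array, 6.77-fold on the scale of log2(signal + 16), a log2 fold change of 2.76 ± 0.12 (SE), with an adjusted p of 4.6e-09 (limma, Benjamini-Hochberg). Its other probe set was dim in both clones, and the mean of the pair gave 1.32. P3H1, which modifies fibrillar collagens in the endoplasmic reticulum together with CRTAP and PPIB, went the other way. Its signals were 1060.7, 1402.3 and 1119.2 in control and 840.7, 552.0 and 560.4 in D20. The groups did not overlap, although D20 array A lay well above B and C, and the log2 fold change was -0.88 ± 0.17 (SE, adjusted p = 0.0015, limma). P3H3, the remaining enzyme of this group, was too dim to test, with 98.2, 45.3 and 36.6 in control and 42.7, 17.3 and 13.2 in D20, which overlap. Of the partners of P3H1, CRTAP rose (0.57, but 0.28 and not called when its probe sets were averaged). PPIB fell (-0.34, adjusted p = 0.0048, limma), though it was not called lower with spike-in scaling. PPIB lies outside the rule for naming genes and was taken as part of the complex after its value was seen. The collagen prolyl 4-hydroxylase P4HA2 rose too (2.29), and the lysyl hydroxylase PLOD3 fell (-0.88).

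ASPH encodes an aspartyl and asparaginyl hydroxylase of EGF-like domains, and by other splicing the proteins junctin and junctate, which lack the catalytic domain. Its brightest probe set read 4610.0, 4588.7 and 4601.1 in control and 1730.5, 1751.0 and 1762.8 in D20. The arrays of each clone lay within a narrow band, and the clones were 2.62-fold apart, a log2 fold change of -1.39 ± 0.08 (SE, adjusted p = 6.0e-08, limma). Of its 9 probe sets 7 were tested and 6 of those fell, 1.85 to 2.83 times lower in D20, while the other had -0.47 (adjusted p = 0.071, limma). Which transcripts each probe set detects was not analysed here.

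The remaining protein-directed members did not pass the test. JMJD6, a lysyl hydroxylase of splicing factors, had a log2 fold change of 0.04 ± 0.10 (SE). OGFOD1, which hydroxylates a proline of the small ribosomal subunit protein uS12, had 0.04 ± 0.10. The histidyl hydroxylases of ribosomal proteins RIOX1 (-0.25 ± 0.14) and RIOX2 (-0.19 ± 0.12) lay slightly lower, and ALKBH4, which demethylates actin, had -0.23 ± 0.32 with the widest error of the 36 tested members.

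ALKBH7, a mitochondrial member required for programmed necrosis, fell with 3238.9, 3582.1 and 3349.7 in control and 1343.1, 1492.4 and 1188.9 in D20. The clones were 2.52-fold apart without overlap, a log2 fold change of -1.33 ± 0.11 (SE, adjusted p = 7.3e-07, limma). A further probe set fell by 1.13 on the log2 scale. Another, dim one went the other way, from 14.7, 87.7 and 64.5 to 124.7, 102.2 and 147.8, a log2 fold change of 1.14 (adjusted p = 0.082, limma), and the mean of all 4 gave -0.23 (adjusted p = 0.36, limma). OGFOD2, an oxygenase without an assigned substrate here, read 497.4, 669.6 and 607.4 in control and 391.0, 380.4 and 244.0 in D20. It fell by 0.80 ± 0.20 (SE) on the log2 scale (adjusted p = 0.0079, limma), a second probe set gave -0.94, and the last 0.09 (not called). With spike-in scaling OGFOD2 was at -0.55 and not called (adjusted p = 0.065, limma).

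**Figure D2:**
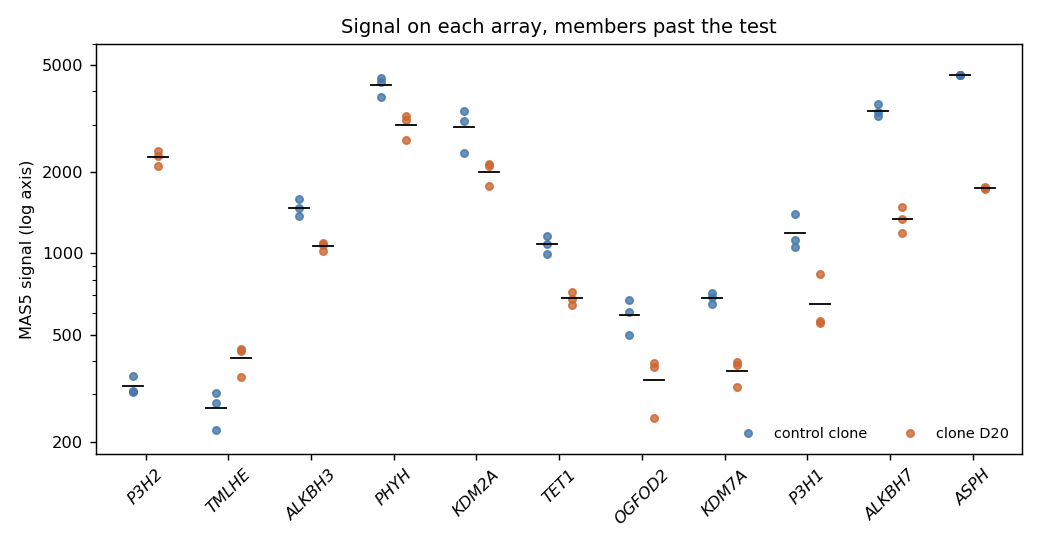
MAS5 signal (log axis) of the 11 members past the test on the 3 control arrays (blue) and the 3 D20 arrays (orange), with the mean of each group as a bar. P3H2 and TMLHE are higher in D20 and the other 9 lower, and the arrays of the clones do not overlap; levels of different genes come from different probes and cannot be compared.

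Promoters of P3H2, P3H1, ALKBH7 and KDM7A are shown because these are the members with the largest changes that have an entry among the RefSeq promoter windows (build GRCh38.p14, 250 bases before to 50 after a start). Such windows were found for 34 members, 53 windows in all. Capitals mark ACGTG or GCGTG on either strand, the core of the hypoxia response element bound by HIF, where CACGTG counts on each strand.
P3H2 first start, chr3:190122229-190122528, minus strand: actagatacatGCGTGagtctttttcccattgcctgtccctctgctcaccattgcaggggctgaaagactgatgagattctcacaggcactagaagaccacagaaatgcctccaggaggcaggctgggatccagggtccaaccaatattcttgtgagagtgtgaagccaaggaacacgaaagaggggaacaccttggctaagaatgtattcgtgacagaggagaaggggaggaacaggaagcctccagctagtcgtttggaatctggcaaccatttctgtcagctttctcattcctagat
P3H2 second start, chr3:190120848-190121147, minus strand: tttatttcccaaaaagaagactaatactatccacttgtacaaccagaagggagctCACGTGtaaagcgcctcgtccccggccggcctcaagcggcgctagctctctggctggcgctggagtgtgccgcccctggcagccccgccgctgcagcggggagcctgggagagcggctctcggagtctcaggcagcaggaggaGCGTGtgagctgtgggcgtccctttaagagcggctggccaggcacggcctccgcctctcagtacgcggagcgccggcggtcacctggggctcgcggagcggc
P3H1, chr1:42766979-42767278, minus strand: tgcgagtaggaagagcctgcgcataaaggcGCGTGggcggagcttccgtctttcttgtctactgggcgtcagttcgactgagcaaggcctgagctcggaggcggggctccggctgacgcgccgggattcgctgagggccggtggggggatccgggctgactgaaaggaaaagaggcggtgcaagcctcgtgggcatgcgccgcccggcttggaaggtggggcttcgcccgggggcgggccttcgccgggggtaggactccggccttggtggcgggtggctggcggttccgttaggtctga
ALKBH7, chr19:6372544-6372843, plus strand: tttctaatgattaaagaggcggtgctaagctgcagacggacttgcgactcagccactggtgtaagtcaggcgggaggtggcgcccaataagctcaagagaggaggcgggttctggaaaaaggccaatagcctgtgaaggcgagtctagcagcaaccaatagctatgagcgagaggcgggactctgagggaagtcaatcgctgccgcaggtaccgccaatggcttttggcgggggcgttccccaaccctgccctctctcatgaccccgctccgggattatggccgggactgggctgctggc
KDM7A, chr7:140176934-140177233, minus strand: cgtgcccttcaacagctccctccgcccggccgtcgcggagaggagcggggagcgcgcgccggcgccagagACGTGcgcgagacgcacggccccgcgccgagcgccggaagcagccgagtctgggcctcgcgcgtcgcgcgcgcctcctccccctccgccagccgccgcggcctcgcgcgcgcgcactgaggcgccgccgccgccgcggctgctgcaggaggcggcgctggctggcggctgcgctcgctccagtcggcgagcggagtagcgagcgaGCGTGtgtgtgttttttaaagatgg

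The core was present at both starts of P3H2, in 1 stretch at the first and 2 at the second, which includes a CACGTG. It was also present in P3H1 and KDM7A, which fell, and absent from the window of ALKBH7, which fell too. The starts of P3H2 differ in CpG count, 4 at the first and 27 at the second, and the array does not tell which was used. Among all member windows 66.0% held the core, against 48.4% of all 35116 windows of this length. Member windows held more CpG (median 22 against 14), which the core itself contains. A match is a description of these letters, not a bound site.

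Among the histone demethylases, KDM7A and KDM2A fell. KDM7A, which acts on lysines 9 and 27 of histone H3, read 691.2, 711.7 and 650.8 in control and 318.7, 386.7 and 396.1 in D20. All D20 arrays lay well below the control arrays, 1.83-fold, a log2 fold change of -0.88 ± 0.15 (SE, adjusted p = 6.2e-04, limma), and its second probe set gave -0.77, also called. KDM2A, an H3K36 demethylase that binds unmethylated CpG islands, read 3378.3, 2364.8 and 3118.4 in control and 2109.5, 1777.8 and 2151.4 in D20. Its groups did not overlap, with control array B the nearest to D20, and it fell by 0.54 ± 0.13 (SE) on the log2 scale (adjusted p = 0.0062, limma). All 3 probe sets of KDM2A fell. With arrays scaled on the spike-in controls it was at -0.28 and not called, and without the variance trend its adjusted p was 0.069 (limma). Its paralog KDM2B, which recruits a polycomb complex to CpG islands, had -0.21 ± 0.11 (SE, not called).

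The other 12 histone demethylases stayed between -0.39 and 0.37. The H3K4 demethylases KDM5A and KDM5B had log2 fold changes of 0.18 and -0.03. For the H3K27 demethylases KDM6A and KDM6B these were 0.35 and 0.10. The H3K9 enzymes spread on either side of 0, with KDM3A at 0.18, KDM3B at 0.24, KDM4A at 0.37, KDM4B at 0.08, KDM4C at -0.31, PHF2 at -0.21, PHF8 at -0.39 and JMJD1C at 0.37. Standard errors of these 12 ran from 0.09 (KDM5B) to 0.24 (PHF8). KDM4A (adjusted p = 0.051) and JMJD1C (adjusted p = 0.072, limma) came nearest to the threshold. KDM4A read 539.1, 569.3 and 496.4 in control and 645.4, 731.5 and 717.6 in D20, without overlap.

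Some of these members had another probe set that passed the test. Of 16 uncalled members with further tested probe sets, 8 had such a probe set called, 6 higher and 2 lower, or 50%, against 24.8% of all uncalled genes of that kind. These shares were not matched for the number of probe sets per gene, and more probe sets give more chances of a call. KDM5A, KDM4B and KDM6B had 5 tested probe sets each, so the shares cannot be compared directly. JMJD1C had a further probe set called at 1.10, from 242.3, 201.7 and 181.9 in control to 506.8, 365.2 and 533.1 in D20. Its other 3 tested probe sets lay between -0.32 and 0.37. KDM6A had one at 1.01, from 176.8, 220.2 and 251.4 to 368.4, 495.6 and 494.7, and KDM4A one at 1.00, from 271.2, 515.2 and 434.9 to 734.4, 1016.5 and 700.6. In these 3 genes the D20 arrays all lay above the control arrays on the dimmer probe set. KDM5A had one at 0.50, OGFOD1 one at 0.56 and JMJD6 a dim one at 1.15. KDM6B had one at -1.14, and RIOX2 one at -0.49. No member had probe sets called in opposite directions. A probe set can detect some of a gene's transcripts only, and which ones was not analysed here.

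**Figure D3:**
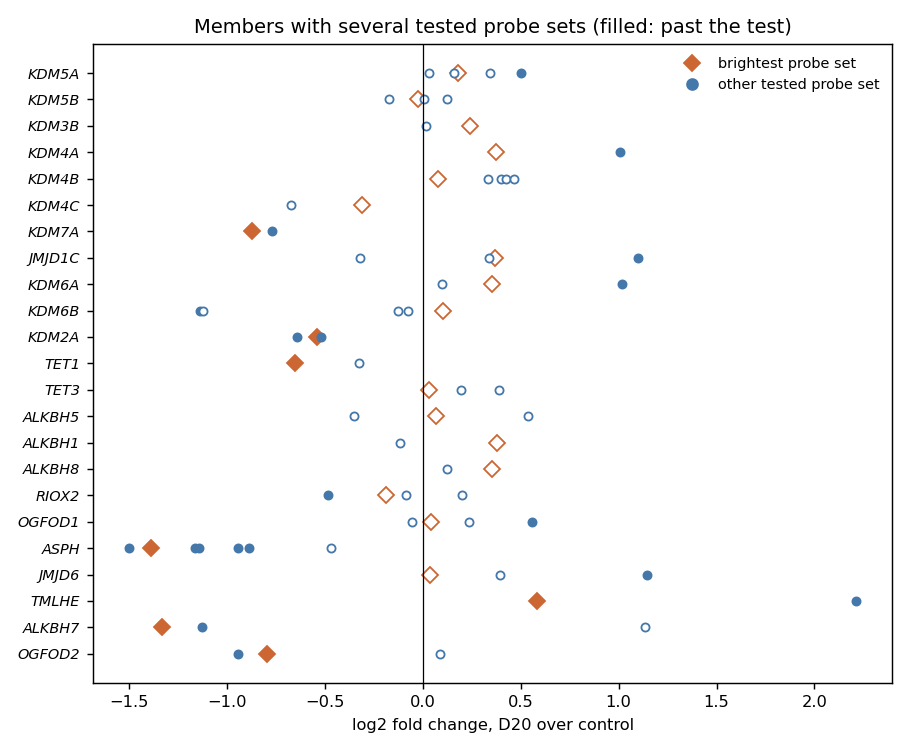
Log2 fold change of every tested probe set for the members that have several, with the brightest as an orange diamond and the others as blue circles; filled symbols passed the test. ASPH, KDM2A and KDM7A have all their probe sets below 0, while ALKBH7 and JMJD1C have probe sets on either side.

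Of the enzymes acting on DNA, TET1 and ALKBH3 fell. TET1, which oxidises 5-methylcytosine to 5-hydroxymethylcytosine, read 1085.2, 992.3 and 1163.9 in control and 642.4, 680.3 and 720.8 in D20. The groups were clearly apart, 1.57-fold, a log2 fold change of -0.65 ± 0.12 (SE, adjusted p = 0.0011, limma). Its other probe set had -0.32, and the mean of the pair was not called (-0.49, adjusted p = 0.13, limma). TET2 had 0.29 ± 0.17 and TET3 0.03 ± 0.10 (SE), neither called. ALKBH3, which repairs alkylated single strands together with the helicase ASCC3, read 1373.7, 1475.9 and 1592.9 in control and 1079.7, 1019.6 and 1091.3 in D20. It fell by 0.47 ± 0.11 (SE) on the log2 scale without overlap (adjusted p = 0.0044, limma), but was not called with spike-in scaling (-0.21). ALKBH2, the repair enzyme of double-stranded DNA, had 0.26 ± 0.18 (SE, not called).

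The enzymes acting on RNA showed small differences. The demethylases of N6-methyladenosine in mRNA, FTO (-0.10 ± 0.10, SE) and ALKBH5 (0.07 ± 0.12), were not called, and their arrays overlapped. FTO read 2115.5, 2069.7 and 1857.6 in control and 1856.7, 2015.8 and 1754.3 in D20. ALKBH1 and ALKBH8, which modify tRNA, had 0.38 ± 0.14 (adjusted p = 0.056) and 0.35 ± 0.21 (adjusted p = 0.22, limma), and for each the D20 arrays all lay above the control arrays. ALKBH1 passed the test with spike-in scaling.

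Among the enzymes of small molecules, PHYH, the phytanoyl-CoA hydroxylase of peroxisomal alpha-oxidation, read 4488.9, 3826.2 and 4331.5 in control and 3248.1, 2634.9 and 3124.3 in D20. It fell by 0.49 ± 0.10 (SE) on the log2 scale (adjusted p = 0.0023, limma), without overlap, and had -0.23 with spike-in scaling, not called. TMLHE, the first enzyme of carnitine synthesis, read 302.8, 221.7 and 278.9 in control and 349.2, 432.8 and 443.6 in D20. It rose by 0.58 ± 0.20 (SE, adjusted p = 0.034, limma). A second probe set read 20.7, 11.0 and 15.6 in control, under the lowest mean signal tested (43.2), and 96.9, 129.4 and 174.1 in D20. It passed the filter only through its D20 arrays and is given as a description. The call of TMLHE was lost when control array B (0.46), control array C (0.62), D20 array B (0.54) or D20 array C (0.52) was left out, and with quantile normalization (0.46), median centring (0.46), no filter on dim probe sets (adjusted p = 0.053, limma) or its probe sets averaged (0.69, adjusted p = 0.055, limma). BBOX1, the last enzyme of carnitine synthesis, was dim, with 48.2, 32.8 and 46.3 in control and 2.4, 9.0 and 5.6 in D20. Its groups did not overlap, and with no filter on dim probe sets it was called lower (log2 fold change -1.43, adjusted p = 0.027, limma). ALDH9A1, which acts between TMLHE and BBOX1 in the same pathway, fell (-0.54), though it was not called lower with spike-in scaling. It was named here for the pathway after its value was seen.

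How the arrays were scaled decided many of the smaller differences. The deposited MAS5 scaling gives each array the same trimmed mean, while scaling on the poly-A spike-in controls raised the median over the probe sets tested from 0.03 to 0.27 on the log2 scale. With the latter, 11 members were called higher and 5 lower, and the median of the members was 0.26. Of all genes 34.7% were then called higher and 11.5% lower. P3H2 (3.01), TMLHE (0.83), KDM7A, TET1 (-0.40), P3H1, ASPH and ALKBH7 (-1.08) were called in the same direction by either scaling. KDM2A, ALKBH3, PHYH and OGFOD2 lost their calls. The 9 members called by the spike-in scaling alone were KDM5A, KDM3A, KDM3B, KDM4A, JMJD1C, KDM6A, TET2, ALKBH1 and OGFOD1, with log2 fold changes from 0.30 to 0.63. Which scaling is the better one for these arrays was not tested.

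**Figure D4:**
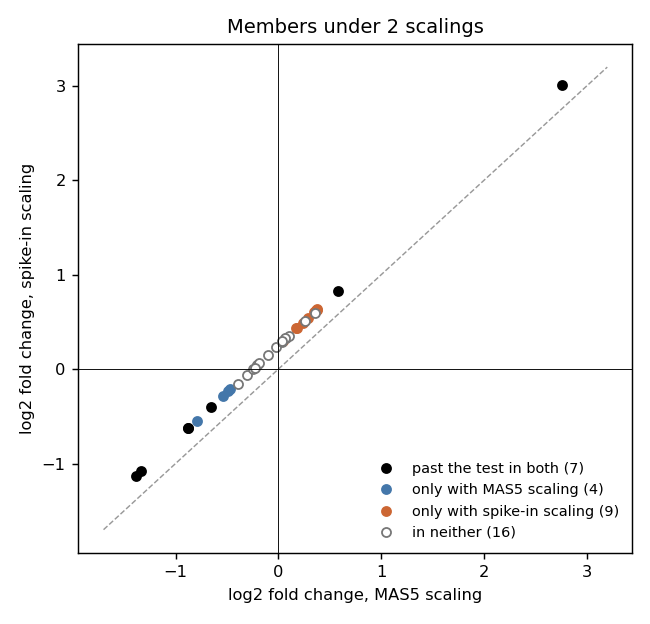
Log2 fold change, D20 over control, of the 36 tested members with the deposited MAS5 scaling (x) and with scaling on the spike-in controls (y); the dashed line marks equal values. All points lie above the line by a similar amount, 7 members pass the test in both, 4 with MAS5 scaling alone and 9 with spike-in scaling alone.

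The other 2-oxoglutarate oxygenases, of which 20 of 24 listed were tested, had 8 higher and 3 lower, or 8 and 1 with spike-in scaling and 4 and 3 with median centring. As deposited 55% of them were called, against 44.5% of all genes. Besides P4HA2 and PLOD3, ASPHD1 (1.38) and ASPHD2 (1.35), relatives of ASPH with an aspartyl hydroxylase domain, rose from low signals, and JMJD4 (-0.73), a lysyl hydroxylase of a translation release factor, fell. ASPHD1 was not called without D20 array C or without the variance trend, and ASPHD2 not without D20 array B. JMJD4 was not called with spike-in scaling, nor without probe sets marked as matching several transcripts. Its call was also lost without control array A, control array B or D20 array C. Genes that make or use 2-oxoglutarate and its relative 2-hydroxyglutarate had 7 of 15 lower and 3 higher, or 3 and 4 with spike-in scaling. Here 66.7% were called as deposited. GLUD1, glutamate dehydrogenase, fell (-1.75), measured by a probe set that can also match its close relatives. The aminotransferases GOT1 (-0.90) and GOT2 (-0.51, not called with spike-in scaling) and the cytosolic isocitrate dehydrogenase IDH1 (-0.67) fell as well. The mitochondrial IDH2 rose (1.14).

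Histone methyltransferases and PRC2 subunits were listed together, including genes such as KMT5B for a mark under which no member was placed here. Of 28 tested 7 rose and 5 fell, or 9 and 2 with spike-in scaling. As deposited 42.9% were called, near the 44.5% of all genes. KMT5B, which methylates lysine 20 of histone H4, fell (-1.03), as did KMT2D (-0.65, but -0.15 and not called when its probe sets were averaged), an H3K4 methyltransferase that works in a complex with KDM6A. SETD7 (0.94), NSD3 (0.78) and EED (0.65) rose, SETD7 and EED not when their probe sets were averaged. The FAD-dependent demethylase KDM1B rose (0.71), and the other 2 genes of its list were not called, though all 3 were higher with spike-in scaling. For a grouping by mark, each enzyme was placed under 1 mark alone. KDM7A, KDM4A, KDM4B and KDM4C thus counted under H3K9 and not under H3K27 or H3K36. For H3K27 neither KDM6A nor KDM6B was called and 2 of 4 PRC2 genes rose. Of the enzymes placed under H3K36, 1 of 2 demethylases fell and 3 of 5 methyltransferases rose. Under H3K9, 1 of 9 demethylases fell with 3 of 7 methyltransferases. The differences between writers and erasers were not tested.

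In the pathway of cytosine methylation, 5 of 11 genes rose and 2 fell, or 6 and 0 with spike-in scaling and 4 and 2 with median centring. As deposited 63.6% were called, against 44.5% of all genes. DNMT3B, a de novo DNA methyltransferase, rose from a mean signal of 550.9 to 1603.2, with an adjusted p of 4.5e-06 (limma), whereas TET1 fell. UHRF1 (0.59) and DNMT1 (0.30, not called with median centring), which copy methylation to new strands, rose, and DNMT3A had 0.15 (not called). DNMT1 and DNMT3A were added to complete the family after their values were seen. MBD4 (0.53) rose, though not without probe sets marked as matching several transcripts (adjusted p = 0.061, limma). The base excision glycosylases TDG (-0.52) and SMUG1 (-0.45) fell, though not with spike-in scaling, nor when their probe sets were averaged (-0.12 and -0.29). SMUG1 was not called without control array C, D20 array A or D20 array B. In the m6A pathway, 4 of 14 genes fell and 1 rose, or 35.7% called, and 3 fell and 5 rose with spike-in scaling. The readers IGF2BP1 (-1.83) and IGF2BP2 (-1.05) and the writer subunit CBLL1 (-1.02) fell. METTL3, the catalytic writer, had -0.40 and was called, but not with spike-in scaling nor without probe sets marked as matching several transcripts. It had 0.039 when its probe sets were averaged. IGF2BP3 had 0.59 and was called, but had -0.16 without probe sets marked as matching several transcripts.

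**Figure D5:**
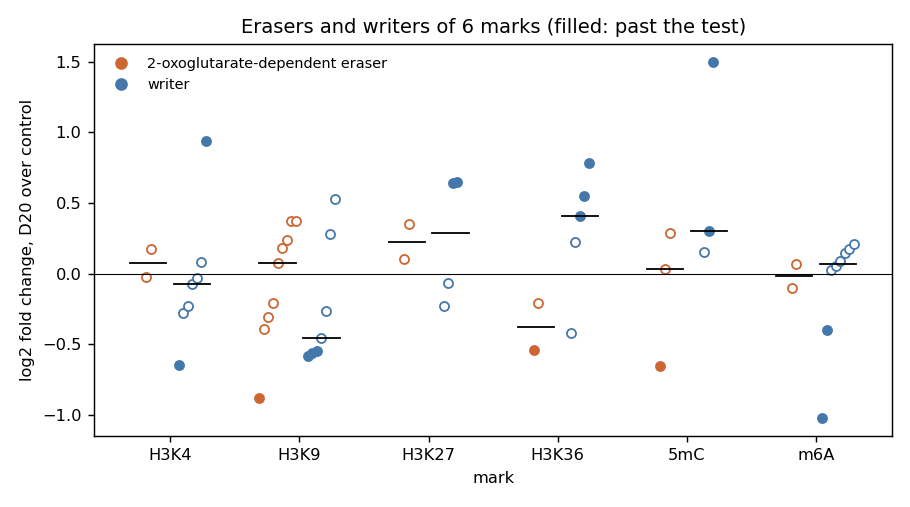
Log2 fold change, D20 over control, of 2-oxoglutarate-dependent erasers (orange) and writers (blue) of 4 histone marks, 5-methylcytosine (5mC) and N6-methyladenosine (m6A), with the median of each group as a bar; filled points passed the test. TET1 (-0.65), which fell, and DNMT3B, which rose, stand at opposite ends of the 5mC genes.

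Binding partners of the members had 7 of 18 lower and 3 higher, or 3 and 5 with spike-in scaling. As deposited 55.6% were called, against 44.5% of all genes. TRMT112, which ALKBH8 needs for its methyltransferase activity, fell (-1.08). ASCC2 (-0.82), a subunit of the complex of ALKBH3 and ASCC3, fell as well. By contrast, ASCC3 (0.51) and ASCC1 (0.47) of that complex were called higher. Both lie outside the rule for naming genes and were added after their values were seen. BCOR, of the polycomb complex with KDM2B, had -0.62 at an adjusted p of 0.050 (limma), just under the threshold, and lost its call in 10 of 17 alternative analyses, among them when control array A, B or C or D20 array A or B was left out.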

How the data were processed

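RNA of 6 samples was measured on Affymetrix arrays. Each deposited table gives intensity on a linear scale, made by the authors with MAS5 per the submitters' processing notes, with version and scaling target not given in the sources used here. Gene names came from the platform annotation in GEO, brought to current RefSeq symbols (GRCh38.p14) through Entrez IDs. Of the 54675 probe sets 41091 had 1 gene symbol, 1801 several and 11721 none, besides 62 controls. Signals were taken to log2(signal + 16), which understates changes of dim genes. The dimmest 40% by mean, below a signal of 43.2, were dropped and 32768 tested, without another normalization step. The clones were compared by moderated linear models with a variance trend (limma 3.58.1, run under R 4.3.3), and p-values, from a two-sided test, were adjusted after Benjamini-Hochberg, with calls at 0.05. The procedure was tested on simulated data. Named genes are all members and, of each pathway list, up to 5 called genes with the largest changes. Members and lists were chosen with earlier results of these data known. Array letters were not used to pair the samples, since no label states a pairing. Deviations of arrays with the same letter correlated at -0.02, 0.05 and 0.01. These values cannot settle whether arrays of the same letter were handled together. The number of arrays limits the precision.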

Additional observations from a re-analysis of the deposited data

How the results depend on the processing

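Of the 11 called members, KDM7A and ASPH kept their call and direction in all 17 alternatives and P3H1 and P3H2 in the 16 that gave them a value. The count of members higher in D20, 2 as reported, was 1 with no filter on dim probe sets, quantile normalization or median centring. It was 4 with the dimmest 60% left out, 4 with the mean of all probe sets of a gene and 11 with spike-in scaling. Without probe sets marked _x_at or _s_at it was 1, TMLHE, by the probe set that passed the filter only through its D20 arrays. P3H2 had no tested probe set in that setting. The count lower, 9 as reported, was 5 with spike-in scaling and 7 with the mean of all probe sets of a gene. It was 8 with no variance trend and 8 without _x_at and _s_at probe sets. No filter on dim probe sets gave 10 lower, and median centring gave 10. Leaving out each array in turn gave 1 to 4 higher and 9 to 10 lower; without D20 replicate B 4 members were higher, KDM3A, JMJD1C and KDM6A being gained and TMLHE lost. Called probe sets were 53.5% higher as deposited, 42.0% with median centring and 75.7% with spike-in scaling. With the replicate block by array letter, which no label supports, 3 members were higher and 9 lower (12557 probe sets called against 11952), JMJD1C being gained. A value of opposite sign was seen for ALKBH7 without _x_at and _s_at probe sets (1.14, from a dim probe set, not called), for IGF2BP3 in the same setting (-0.16) and for METTL3 when its probe sets were averaged (0.039). The causes were not tested. Pseudocounts of 1 and 64 gave 2 higher and 9 lower, with each call shared. Dim probe sets, such as those of BBOX1 and P3H3, limit what could be tested.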

Other observations

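Members were set beside their neighbours on the chromosome, up to 10 tested genes on each side in the RefSeq order. KDM2A lay among genes that were also lower, with a median log2 fold change of -0.61 and 11 of 20 lower against its own -0.54. The neighbours of ALKBH3 had a median of -0.24 and those of the untested BBOX1, also on chromosome 11, -0.64, with 13 of 20 lower. JMJD1C (0.37) and ALKBH8 (0.35) lay among higher genes, with medians of 0.50 and 0.46 and 10 of 20 higher each. TET1, on chromosome 10, fell while 11 of its 20 neighbours were higher (median 0.37 against -0.65), and ALKBH7 fell among neighbours with a median of 0.27. P3H2 and ASPH had neighbours with medians of 0.03 and -0.16. Of the 11 called members 9 had the sign of their neighbours' median, and of the 36 tested members 23. The share over all genes was not computed. Among the called members, the neighbours' median lay near 0 for PHYH (-0.02), P3H2 (0.03), TMLHE (0.06) and P3H1 (-0.08). The part of the neighbourhood in the members' values was not tested.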
